A study of Mus musculus with 6 samples.

Results

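Kallikrein-related peptidases are secreted serine proteases, and in the epidermis they are held in check by LEKTI, the inhibitor that Spink5 encodes. The 10 genes described here are 9 kallikreins (Klk5, Klk6, Klk7, Klk8, Klk9, Klk10, Klk11, Klk13 and Klk14) and Spink5. They were taken by name from the 17025 genes of the deposited expression table, with earlier results of these data known, and all 10 were found. Granular keratinocytes release the proteases and the inhibitor into the space between cells. There the proteases activate each other in a cascade and cleave the corneodesmosomes that hold the outermost cells together, which lets these cells be shed. LEKTI slows this cascade, and its loss in people causes Netherton syndrome, a disease of excess shedding and a weak skin barrier.

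The RNA came from integrin α6-positive cells sorted from the epidermis of newborn mice at postnatal day 0 and labelled as epidermal progenitors. There were 3 libraries labelled control, from K14Cre mice with 1 floxed Ash2l allele (K14Cre,Ash2lF/+), and 3 labelled cKO, with both alleles floxed (K14Cre,Ash2lF/F). All 6 carried K14Cre, which uses the keratin 14 promoter of basal keratinocytes, and none was treated. Ash2l encodes a core subunit of the complexes that methylate histone H3 at lysine 4, and the series asks how it acts on epidermal differentiation. Whether each library came from an animal of its own is not stated, so the spread behind each p-value is that between libraries and may be technical.

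The targeted gene went against the labels. Ash2l stood at 12.4, 18.1 and 15.9 FPKM in control 1 to 3 and at 30.9, 29.5 and 22.9 FPKM in cKO 1 to 3, so groups are named by their labels throughout and every direction rests on them. FPKM counts fragments relative to the length of the gene and the fragments of the library, so levels can be compared between genes. Library totals were 31578875 to 36027550 fragments. Of the basal keratinocyte markers looked at, all 10 were detected, with a summed level of 5093 to 8880 FPKM in the libraries labelled control and 8129 to 10490 FPKM in those labelled cKO. Keratins make up most of that sum. By gene, 1 of the 10 was called higher (Krt15) and 2 lower (the integrins Itgb4 and Itgb1), with a median log2 difference of -1.03. Over all genes tested, 5.87% were called higher and 13.6% lower. Itga6, which encodes the integrin the cells were sorted on, was at 162, 78.8 and 72.0 FPKM in control 1 to 3 and at 53.6, 53.0 and 19.7 FPKM in cKO 1 to 3, with no overlap and no call (-1.32, SE 0.44; limma adjusted p = 0.0710).

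Of the 10 genes, 9 averaged at least 1 FPKM and were tested. Klk8 was higher in the libraries labelled cKO, and Klk5, Klk6, Klk9 and Spink5 were lower. Klk7, Klk10, Klk11 and Klk13 did not pass the test, and Klk14 was too low to be tested. The test was limma on log2(FPKM + 1) over all 11603 genes that averaged 1 FPKM or more, and a gene was called at a Benjamini-Hochberg adjusted p under 0.05. Of all genes tested, 5.87% were called higher, 13.6% lower and 19.5% in either direction. Among the 9 tested here, 1 was higher and 4 were lower. Their median log2 difference was -0.80, against -0.17 over all genes. Scaling by the median of ratios moved the median of all genes to 0.03. It called 17.6% of all genes, 1044 higher and 1001 lower against 681 and 1576 before, and made the same calls among the 9. The 2 groups did not overlap for 1 gene higher and 5 lower of the 9, against 12.0% and 30.9% of all genes tested.

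**Figure D1:**
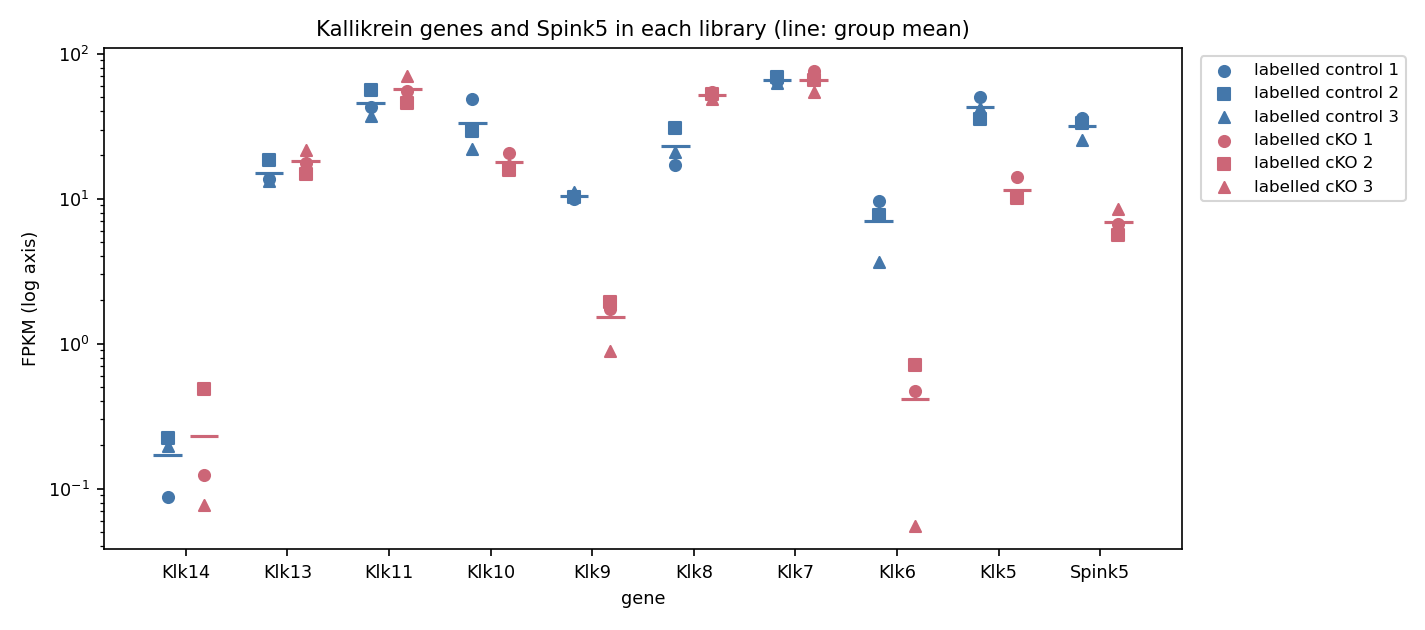
FPKM on a log axis for each of the 10 genes in each library, with the libraries labelled control in blue, those labelled cKO in red and a line at each group mean. Klk5, Klk6, Klk9 and Spink5 lie lower and Klk8 higher in every library labelled cKO, while Klk7, Klk11 and Klk13 overlap.

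The kallikrein genes lie side by side on chromosome 7, so the bases before their start sites are shown for 3 neighbours that went different ways: Klk8, which rose, Klk7, which did not pass the test, and Klk6, which fell. The sequences are RefSeq's, of build GRCm38.p6, plus strand, and end just before the earliest start annotated for the gene: chr7:43797327-43797531 for Klk8, chr7:43811044-43811293 for Klk7 and chr7:43824294-43824437 for Klk6. Capitals mark the GC box letters GGGCGG or their reverse complement CCGCCC.
Klk8: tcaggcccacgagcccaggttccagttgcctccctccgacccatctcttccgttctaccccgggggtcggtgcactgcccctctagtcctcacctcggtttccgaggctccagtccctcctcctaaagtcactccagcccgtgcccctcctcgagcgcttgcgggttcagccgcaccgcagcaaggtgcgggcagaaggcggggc
Klk7: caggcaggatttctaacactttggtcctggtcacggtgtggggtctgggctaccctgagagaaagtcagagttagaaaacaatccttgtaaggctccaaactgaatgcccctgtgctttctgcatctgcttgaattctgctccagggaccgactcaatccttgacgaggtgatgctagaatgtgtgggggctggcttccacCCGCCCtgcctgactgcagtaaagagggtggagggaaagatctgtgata
Klk6: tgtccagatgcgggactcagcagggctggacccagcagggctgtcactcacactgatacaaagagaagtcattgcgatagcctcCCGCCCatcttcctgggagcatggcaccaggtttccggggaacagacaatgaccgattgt
Of the 9 kallikrein genes, 6 had such a window of at least 100 bases. Each was searched on both strands for the AP-1 letters TGANTCA, for the RBPJ core TGGGAA, for the TATA box letters TATAAA, for the E-box CACGTG, for the Grainyhead-like letters AACCNGTT and for the GC box. No window held more than 1 of them, so none overlapped. The GC box was in the windows of Klk6 and Klk7, and 28.3% and 32.7% of all windows of those lengths (144 and 250 bases) held it. The windows of all genes were taken directly before a listed start and not cut back to the earliest annotated one. Their position can therefore differ from that of the kallikrein windows shorter than 250 bases. The RBPJ core, the site that Notch signalling acts through, was in those of Klk11 and Klk13, whose levels did not pass the test, and in 20.5% and 21.6% of all windows of their lengths (237 and 250 bases). Klk8 and Klk10 held none of the 6 motifs, and no kallikrein window held the AP-1, TATA box, E-box or Grainyhead-like letters. Of all windows of 250 bases, 6.75%, 12.4%, 6.02% and 1.79% held these 4.

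Spink5, the inhibitor, was lower in the libraries labelled cKO. It measured 36.1, 33.4 and 25.2 FPKM in control 1 to 3 and 6.67, 5.66 and 8.54 FPKM in cKO 1 to 3. The lowest library labelled control was well above the highest labelled cKO. The means were 31.6 ± 5.67 and 6.96 ± 1.46 FPKM (SD, n = 3 each), a 4.54-fold fall. In bulk RNA of sorted cells, fewer cells that make a transcript and less of it per cell cannot be told apart, here and for each gene that follows. The log2 difference was -2.03 (SE 0.20; limma adjusted p = 0.00156). Each single gene with groups that do not overlap gave p = 0.1 in the exact permutation test, two-sided, which is the smallest that 3 against 3 libraries can give.

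Klk5, a trypsin-like protease that can activate itself and other kallikreins and so starts the cascade, fell with Spink5. Its levels were 50.7, 35.5 and 42.2 FPKM in control 1 to 3 and 14.0, 10.1 and 10.2 FPKM in cKO 1 to 3. Every library labelled cKO was below every one labelled control. Group means of 42.8 ± 7.64 and 11.4 ± 2.25 FPKM (SD, n = 3 each) gave a 3.74-fold fall, with a log2 difference of -1.82 (SE 0.19; limma adjusted p = 0.00169).

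Klk7, the chymotrypsin-like protease of the stratum corneum that cleaves corneodesmosin, was the most abundant kallikrein on average in both groups and did not pass the test. It stood at 65.1, 69.5 and 63.0 FPKM in control 1 to 3 and at 76.2, 66.0 and 54.4 FPKM in cKO 1 to 3. The libraries labelled cKO spanned a wider range that took in all those labelled control. Mean levels were 65.9 ± 3.35 and 65.5 ± 10.9 FPKM (SD, n = 3 each), and the log2 difference was -0.02 (SE 0.15; limma adjusted p = 0.945). Its sign turned with the scaling, to 0.20 under the median of ratios.

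Klk14, another trypsin-like protease of the cascade that Klk5 activates, was near the limit of detection. The table gave 0.0876, 0.223 and 0.197 FPKM in control 1 to 3 and 0.123, 0.488 and 0.0768 FPKM in cKO 1 to 3. These values stand for 36 fragments over the 3 libraries labelled control and 51 over those labelled cKO. The groups overlapped, and the difference on the log2(FPKM + 1) scale was 0.06.

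Klk8, a trypsin-like protease also known as neuropsin, was the one gene of the 10 that rose. Its values were 17.0, 31.0 and 20.9 FPKM in control 1 to 3 and 54.3, 52.9 and 48.9 FPKM in cKO 1 to 3. The libraries labelled cKO lay close together and above control 2, the highest of the others. From 23.0 ± 7.22 to 52.0 ± 2.80 FPKM (SD, n = 3 each), the means differed 2.27-fold, with a log2 difference of 1.19 (SE 0.21; limma adjusted p = 0.00934). In the GENCODE M21 annotation 382 of its 1540 exon bases lie across from exons of 2310002F09Rik, a long non-coding RNA on the opposite strand, as do 287 of 1271 for Klk14. Whether the counting used strand is not given in the sources used here, so fragments of that RNA and of Klk8 or Klk14 cannot be told apart.

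Klk6, a trypsin-like protease also called neurosin, had the largest fall of the 10 genes on the log2 scale. It was at 9.60, 7.67 and 3.65 FPKM in control 1 to 3 and at 0.471, 0.718 and 0.0550 FPKM in cKO 1 to 3. All libraries labelled cKO were under 1 FPKM, and cKO 3 held only 3 fragments against 24 in cKO 1 and 37 in cKO 2. Means of 6.97 ± 3.04 and 0.415 ± 0.335 FPKM (SD, n = 3 each) are 16.8-fold apart. The log2(FPKM + 1) difference of -2.44 (SE 0.35; limma adjusted p = 0.00426) understates this fall, since the added 1 exceeds the levels in the libraries labelled cKO. With a pseudocount of 0.1 or 0.01 it was -3.98 or -4.51, and -4.54 with limma-voom on recovered fragments. Over summed fragments, 1024 against 64, the ratio per library total was 17.0, with an exact binomial 95% interval of 13.2 to 22.3 that covers counting error only.

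Klk9, a member with less well known substrates, fell as well. It stood at 9.97, 10.2 and 11.1 FPKM in control 1 to 3 and at 1.73, 1.93 and 0.895 FPKM in cKO 1 to 3. The libraries labelled control lay close together, and cKO 3 was the lowest library. Means were 10.4 ± 0.572 and 1.52 ± 0.549 FPKM (SD, n = 3 each), 6.86-fold apart, with a log2 difference of -2.21 (SE 0.22; limma adjusted p = 0.00156).

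Klk10 was lower in each library labelled cKO without passing the test. Its levels were 48.9, 29.3 and 21.9 FPKM in control 1 to 3 and 20.5, 15.7 and 17.4 FPKM in cKO 1 to 3. Control 3 was only just above cKO 1, and the libraries labelled control were spread over 33.4 ± 13.9 FPKM, against 17.9 ± 2.47 FPKM (SD, n = 3 each). The log2 difference was -0.80 (SE 0.28; limma adjusted p = 0.0812), and -1.05 without control 3 (adjusted p = 0.0484).

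Klk11 and Klk13, both of the kallikrein family found in differentiated epidermis, overlapped between the groups. Klk11 was at 43.1, 56.7 and 37.5 FPKM in control 1 to 3 and at 55.0, 45.9 and 70.7 FPKM in cKO 1 to 3 (log2 difference 0.32, SE 0.21; limma adjusted p = 0.319). Klk13 was at 13.8, 18.4 and 13.3 FPKM and at 17.7, 14.9 and 21.7 FPKM (0.24, SE 0.20; limma adjusted p = 0.425). Both were highest in cKO 3 and lowest in control 3. Their profiles over the 6 libraries were the closest among the 9 tested genes: the root mean square distance between their mean-centred log2(FPKM + 1) values was 0.07. The next closest pair, Klk5 and Spink5, was 0.31 apart.

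**Figure D2:**
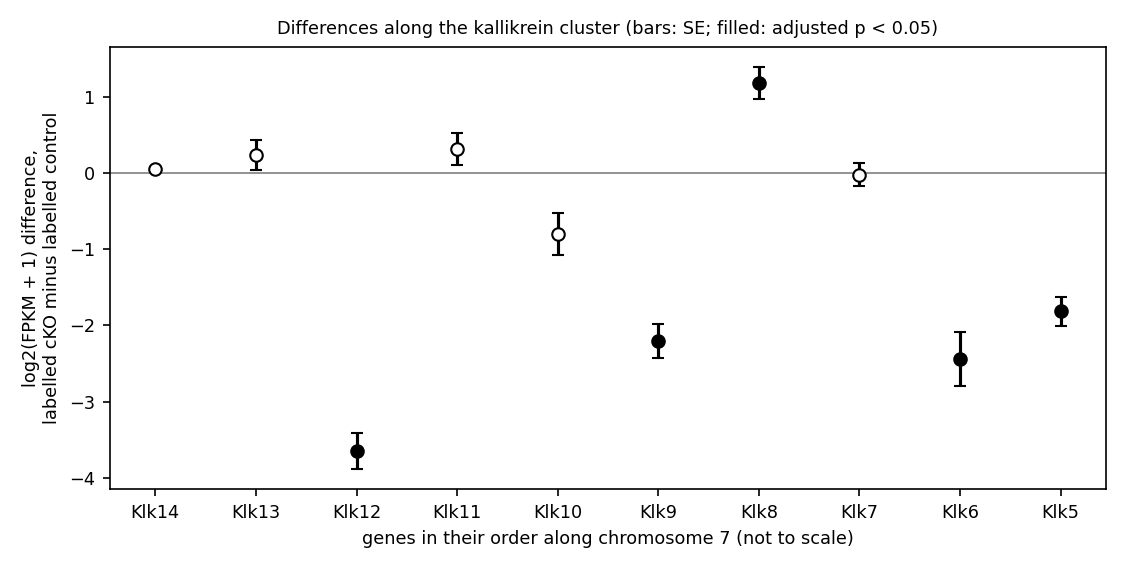
Difference in log2(FPKM + 1), labelled cKO minus labelled control, with its SE, for 10 kallikrein genes in their order along chromosome 7; filled points have an adjusted p under 0.05. Klk9 (-2.21) lies next to Klk8 (1.19), and Klk14, which was not tested, has no SE.

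Genes that rose, fell or did not pass the test lay side by side on the chromosome. RefSeq's GRCm38.p6 annotation places these coding genes, all on 1 strand, in the order Klk14, Klk13, Klk12, Klk11, Klk10, Klk9, Klk8, Klk7, Klk6 and Klk5. Klk9 and Klk8 are direct neighbours. The ratio of Klk8 to Klk9 was 1.71, 3.03 and 1.89 in control 1 to 3 and 31.4, 27.4 and 54.7 in cKO 1 to 3. Klk12, a trypsin-like family member between Klk13 and Klk11, had the largest fall of the cluster: 416, 541 and 314 fragments in control 1 to 3 (12.01, 14.9 and 8.73 FPKM) and 0, 0 and 1 in cKO 1 to 3. Over summed fragments the ratio was 1353 per library total, with an exact binomial 95% interval of 242 to 53473 that covers counting error only, not the spread between libraries, and rests on 1 fragment in those labelled cKO (log2 difference -3.65, SE 0.24; limma adjusted p = 0.000676). The other 5 kallikrein family genes in the table (Klk1, Klk1b5, Klk1b26, Klk1b27 and Klk4) averaged under 1 FPKM and were not tested, and Klk12 was the only one of 6 that was.

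The summed kallikrein level stayed in 1 range while the inhibitor fell. The 9 kallikreins together came to 258, 259 and 214 FPKM in control 1 to 3 and to 240, 208 and 224 FPKM in cKO 1 to 3, so the groups overlapped. Divided by Spink5, the sum was 7.15, 7.74 and 8.47 in control 1 to 3 and 36.0, 36.8 and 26.3 in cKO 1 to 3. The mean ratio was 7.79 ± 0.661 and 33.0 ± 5.87 (SD, n = 3 each). No test is given for this ratio, since the genes were brought together with results known. It does not depend on the scaling between libraries. Without Klk7 in the sum the ratios were 5.66 ± 0.313 and 23.2 ± 2.89 (SD, n = 3 each). Single proteases differed in this: Klk5 over Spink5 was 1.06 to 1.67 in the libraries labelled control and 1.19 to 2.10 in those labelled cKO, with overlap, and Klk9 over Spink5 overlapped too. Klk7 over Spink5 went from 1.80 to 2.50 up to 6.37 to 11.7, and Klk8 over Spink5 from 0.471 to 0.928 up to 5.72 to 9.34. Klk10 over Spink5 went from 0.870 to 1.35 up to 2.04 to 3.08, and Klk11 over Spink5 from 1.19 to 1.70 up to 8.11 to 8.28. Klk13 over Spink5 went from 0.381 to 0.552 up to 2.54 to 2.65. Klk14 over Spink5 was also higher in every library labelled cKO, on few Klk14 fragments. Klk6 over Spink5 went the other way, from 0.145 to 0.266 down to 0.00644 to 0.127, on few Klk6 fragments in the libraries labelled cKO. These are ratios of transcripts and do not measure protease activity.

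**Figure D3:**
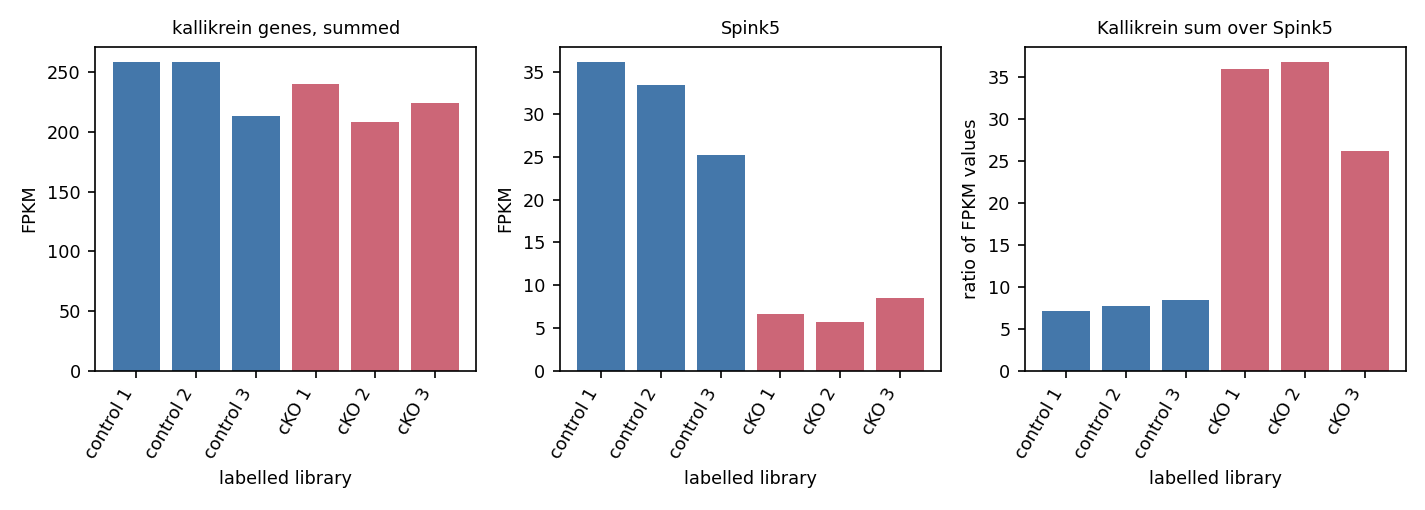
Bars from 0 give the summed FPKM of the 9 kallikreins, the FPKM of Spink5 and their ratio in each library, blue for those labelled control and red for those labelled cKO. The sum lies between 208 and 259 FPKM in all 6 libraries, and the ratio is at most 8.47 in those labelled control and at least 26.3 in those labelled cKO.

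The makeup of the pool shifted. Klk5 made up 13.7 to 19.7% of the summed kallikrein FPKM in the libraries labelled control and 4.55 to 5.84% in those labelled cKO. Klk8 went from 6.59 to 11.99% up to 21.8 to 25.4%. Klk9 fell from 3.86 to 5.18% down to 0.399 to 0.926%, and Klk6 from 1.71 to 3.72% down to 0.0245 to 0.344%. The share of Klk7 overlapped, at 25.2 to 29.5% and 24.3 to 31.7%. In order of mean level, the libraries labelled control ran Klk7, Klk11, Klk5, Klk10, Klk8, Klk13, Klk9, Klk6 and Klk14, and those labelled cKO ran Klk7, Klk11, Klk8, Klk13, Klk10, Klk5, Klk9, Klk6 and Klk14. In the libraries labelled control, neighbours from Klk11 down to Klk13 in this order overlapped, while Klk7 stood above Klk11, and Klk9, Klk6 and Klk14 each lay below the gene before. In those labelled cKO, Klk7 overlapped Klk11, Klk11 overlapped Klk8, Klk13 overlapped Klk10 and Klk6 overlapped Klk14, and the other neighbours did not overlap.

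**Figure D4:**
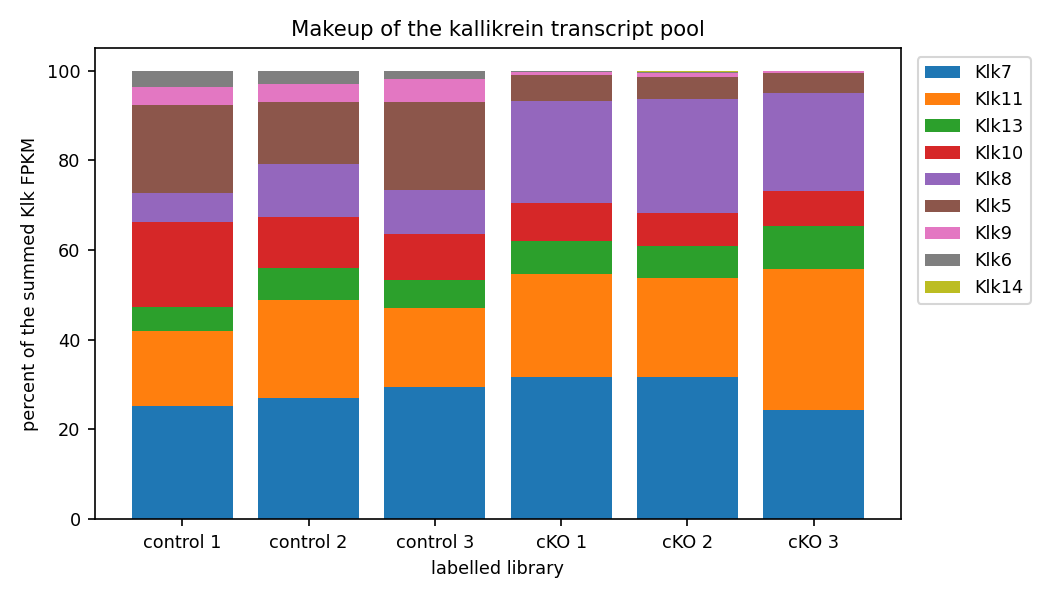
Stacked bars give each kallikrein's percent of the summed kallikrein FPKM in each library. Klk8 widens to 21.8 to 25.4% and Klk5 narrows to 4.55 to 5.84% in the libraries labelled cKO.

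Of 25 other epidermal proteases tested, 7 were higher and 5 lower (median -0.10, and 0.12 under the median of ratios). By comparison, 5.87% of all genes tested were called higher and 13.6% lower. Matriptase, encoded by St14 and able to activate prokallikreins, did not pass the test (means 20.5 and 16.7 FPKM; -0.28, SE 0.15; limma adjusted p = 0.225). Prostasin, a membrane-bound partner of matriptase encoded by Prss8, rose. It was at 1.61, 0.932 and 0.939 FPKM in control 1 to 3 and at 10.3, 9.25 and 18.2 FPKM in cKO 1 to 3 (log2 difference 2.61, SE 0.28; limma adjusted p = 0.00179). The membrane serine protease Tmprss4 rose by 2.49, the dipeptidyl peptidase cathepsin C (Ctsc) by 1.88 and cathepsin H (Ctsh) by 1.18. The 5 lower were cathepsins, legumain, a calpain and a secretase. They included the secretase Bace2 (-2.63), cathepsin L (Ctsl, -2.33), calpain 2 (Capn2, -1.93) and cathepsin Z (Ctsz, -1.70). The membrane serine proteases St14 and Hpn (-0.51, limma adjusted p = 0.142) were not called. Both were lower in every library labelled cKO than in any labelled control. The 7 higher became 4 without control 1, control 2 or cKO 2. Ctsh lost its call without any library but cKO 3, Ctsc without control 1 or 2, and Ctsl without any library labelled control (adjusted p up to 0.0992, 0.0664 and 0.0714). Asprv1, also among the 7 higher, lost its call in each fit that left out 1 library (adjusted p up to 0.130), and Tmprss13 without cKO 2 (adjusted p = 0.0532).

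Other protease inhibitors went both ways: of 15 tested, 4 were higher and 4 lower (median -0.50, and -0.39 under the median of ratios). Each was 26.7%, against 5.87% higher and 13.6% lower over all genes tested. Cystatin M/E, an inhibitor of cathepsins and legumain encoded by Cst6, rose from 0.866, 1.26 and 2.67 FPKM in control 1 to 3 to 13.5, 10.2 and 7.17 FPKM in cKO 1 to 3 (2.14, SE 0.32; limma adjusted p = 0.00489). Spint2 and Spint1, which inhibit matriptase, rose by 1.04 and 0.50, and cystatin C (Cst3) by 0.68. Spink8, which encodes another Kazal-type inhibitor, fell beside Spink5, from 9.03, 6.05 and 6.17 FPKM to 2.06, 0.834 and 1.40 FPKM (-1.74, SE 0.26; limma adjusted p = 0.00504). Serpina3n (-1.98), Timp1 (-1.60) and the calpain inhibitor Cast (-0.82) were lower too. The 4 higher became 2 without control 1, control 2, cKO 1 or cKO 2, where Spint1 and Cst3 lost their calls (adjusted p up to 0.121 and 0.0950). Timp1 was called only without control 1 among the fits that leave out 1 library (adjusted p up to 0.104 in the others).

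Of 12 tested genes for substrates, the receptor and factors tied to it, 3 were higher and 4 lower (median 0.06, and 0.28 under the median of ratios). These were 25.0% and 33.3%, against 5.87% and 13.6% of all genes tested. Corneodesmosin, a main substrate of Klk5 and Klk7 encoded by Cdsn, was lower, at 6.03, 4.99 and 2.52 FPKM in control 1 to 3 and 0.788, 1.44 and 0.362 FPKM in cKO 1 to 3 (-1.55, SE 0.34; limma adjusted p = 0.0182). Desmoglein 1, another corneodesmosome protein, is split in mice over several genes. Dsg1a rose from 142, 129 and 120 FPKM to 331, 352 and 582 FPKM (1.64, SE 0.22; limma adjusted p = 0.00320), and Dsg1b was at 0.65 (SE 0.21; adjusted p = 0.0607). These paralogues are alike, so fragments may be split between them. F2rl1, which encodes PAR2, the receptor that Klk5 and Klk14 can cleave, was at 31.4, 20.9 and 24.7 FPKM and at 25.7, 27.4 and 29.0 FPKM (0.11, SE 0.17; limma adjusted p = 0.699). Tslp, a cytokine that keratinocytes make after PAR2 signalling, was at 10.2, 13.1 and 13.1 FPKM and listed at 0, 0 and 0.318 FPKM (-3.57). Filaggrin (Flg, 1.82) and the plasminogen activator Plau (1.61) were higher, and Plat (-1.80) and Plaur (-1.42) lower. The 4 lower became 2 without control 2, where Cdsn (adjusted p = 0.0710) and Plaur (adjusted p = 0.0536) lost their calls. Cdsn also lost its call without control 1 or cKO 1 (adjusted p = 0.0550 and 0.0512), and Plaur without control 3 (adjusted p = 0.0560).

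**Figure D5:**
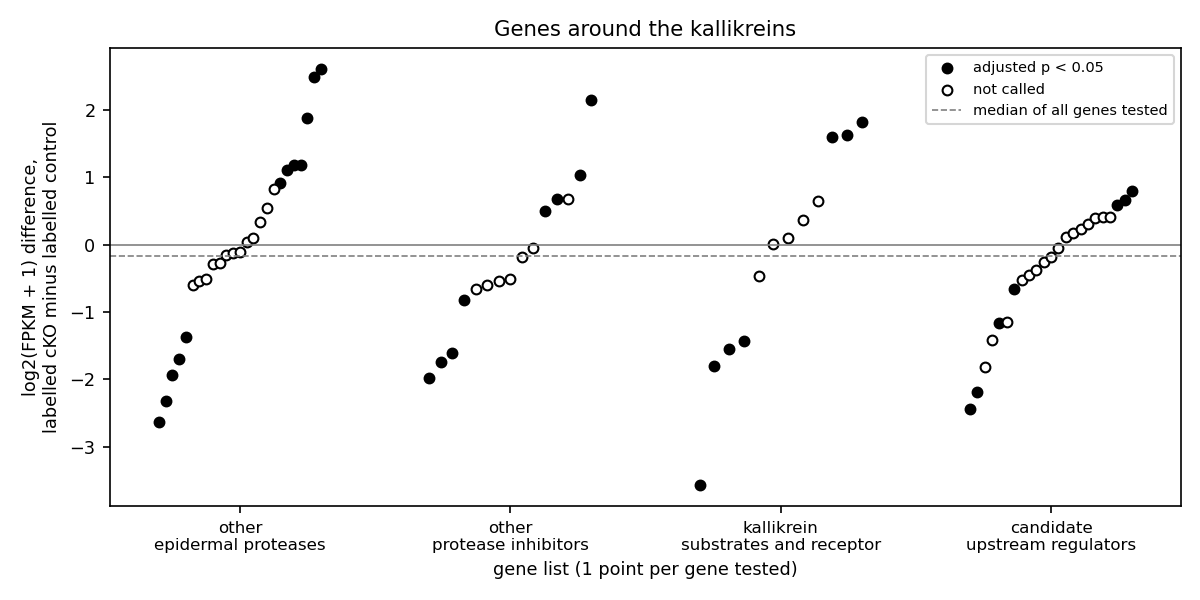
Each point is 1 tested gene of 4 lists, at its difference in log2(FPKM + 1), labelled cKO minus labelled control; filled points have an adjusted p under 0.05 and the dashed line is the median of all genes tested, -0.17. Every list has filled points on both sides of 0.

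Among 23 tested transcription factors with known parts in keratinocyte differentiation or stress, 3 were higher and 4 lower (median -0.18, and 0.04 under the median of ratios). These were 13.0% and 17.4%, against 5.87% and 13.6% of all genes tested. Gata3 (0.79), Rxra (0.67) and Cebpa (0.60) were higher. Fosl1, an AP-1 subunit (-2.44), and Ehf, an ETS factor (-2.19), were lower, as were Jund (-1.16) and Klf4 (-0.65). Klf4 was called with all 6 libraries and in none of the fits that leave 1 out, nor under the median of ratios (-0.43, adjusted p = 0.113). Cebpa lost its call without any library but control 3, and Jund without control 3 or any labelled cKO (adjusted p up to 0.0973 and 0.0739). Jund also lost its call under the median of ratios (-0.94, adjusted p = 0.0615). Control 1 stood apart in AP-1 genes: Jun was at 344 FPKM there against 36.1 and 44.4 in control 2 and 3, Fos at 357 against 38.9 and 37.1, and Jund at 192 against 84.1 and 97.1. Rxra lost its call without cKO 2 (adjusted p = 0.0544).

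For 7 of the 9 tested genes, all but Klk11 and Klk13, genes outside the set had closer profiles than any other of the 9. The outside genes came from the 11603 tested and far outnumbered the 9, so a closer one among them was likely in any case. This comparison therefore cannot tell how alike the 9 are. By the root mean square distance over the 6 libraries, the closest to Spink5 were Defb3 (0.14), an antimicrobial peptide gene, and Rsad2 (0.17), an interferon-induced gene. In cKO 1 to 3 Defb3 was at 0, 0 and 0.0862 FPKM and Rsad2 at 0.102, 0 and 0.0293 FPKM. Spink5 stayed at 5.66 FPKM or more there. The added 1 flattens falls to such low levels, so a small distance does not mean an equal fold fall. The same holds for Cd72, named next beside Klk5, at 0.275, 0.233 and 0 FPKM in cKO 1 to 3. It holds too for Ntm and Cpeb1 beside Klk9 and for Map3k14 and Dpf1 beside Klk10. These were all under 1 FPKM in each library labelled cKO. Klk6 was itself under 1 FPKM there, while Uap1l1, named beside it, was at 5.81, 5.84 and 2.55 FPKM. Klk5 was closest to Spink8 (0.14) and Cd72 (0.14), Klk6 to Uap1l1 (0.18) and Iqgap2 (0.20), Klk9 to Ntm (0.08) and Cpeb1 (0.10), and Klk8 to Sphk1 (0.06) and Arhgef4 (0.07). For Klk7 they were Rsad1 (0.02) and Ncaph2 (0.03), and for Klk10 Map3k14 (0.10) and Dpf1 (0.12). Dtd1 (0.08) and Ydjc (0.09) were the closest to Klk11, and Zfp7 (0.08) and Tmem70 (0.08) to Klk13, without counting the other genes described here.

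Markers of several cell states moved with the labelled groups. Over all genes tested, 5.87% were called higher and 13.6% lower. Kallikreins and Spink5 are normally made by granular cells, whose markers went both ways: of 9 tested, 3 were higher and 2 lower. The summed level of granular markers was 120 to 209 FPKM in the libraries labelled control and 250 to 488 FPKM in those labelled cKO. Asprv1 and Casp14 made up most of this sum. Casp14 was not called, and Asprv1 lost its call in each fit that left out 1 library. Spinous markers had 6 of 9 higher, with 5027 to 6994 and 36377 to 70171 FPKM, most of it from Krt1 and Krt10. Stress keratinocyte markers had 7 of 8 lower, with 3759 to 5033 and 1918 to 2497 FPKM. Krt17, the 1 stress marker not called, made up most of that sum in the libraries labelled cKO. Its means were 1487 and 1706 FPKM, so the sum understates the fall of the other stress markers. All 9 melanocyte markers were lower, with 2869 to 3285 and 174 to 373 FPKM. Fibroblast markers (none of 9 called) summed to 108 to 373 and 152 to 469 FPKM. Schwann cell markers (1 of 5 tested lower) summed to 125 to 153 and 73.2 to 98.6 FPKM, and hair follicle markers (2 of 11 higher) to 1562 to 1925 and 2590 to 3403 FPKM. Krt17 and Krt79 made up most of the hair follicle sum, and Krt17 was also counted among the stress markers. Sox9, Tchh and Krt71 had lower means in the libraries labelled cKO, and the other hair follicle markers higher ones. Only Shh and Krt79 were called. Immune (2.0 to 3.8 and 2.0 to 4.7 FPKM) and endothelial markers (4.8 to 9.7 and 3.0 to 9.96 FPKM) were low in both groups. The immune markers Cd207, Cpa3 and Mcpt4 were also looked for and were not among the 17025 genes. Of the markers that were among them, none was at 0 throughout a group. The part of these cells in the kallikrein and Spink5 differences was not tested.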

How the data were processed

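The 6 RNA-seq libraries were grouped by their titles. The authors deposited 1 table of FPKM values for 17025 genes, per the file headers. Per the submitters' processing notes the tools were fastp, HISAT2 and HTSeq and the build was GRCm39, without versions; annotation, gene filter and strand use were not given in the sources used here. FPKM values were turned back into whole fragments for all 17025 genes (relative tolerance 1e-06), which gave the library totals.

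Genes averaging 1 FPKM or more were fitted on log2(FPKM + 1) with limma 3.58.1 (R 4.3.3) by group, with a mean-variance trend, and p-values were adjusted over all 11603 genes (threshold 0.05). Members and lists were chosen with earlier results of these data known. The lists were other epidermal proteases, other protease inhibitors, kallikrein substrates and receptor, other kallikrein family genes, transcription factors and cell type markers. The rule for named genes took all 10 members, up to 4 called genes per list and direction, 7 preset genes, and the 2 genes closest to each tested member, leaving out predicted (Gm) and Rik genes. The fit was also run on simulated data with known differences and independent noise. That run checked the code only and does not bear on the calls made here. Alternatives covered pseudocounts, filters, scalings, the variance model, limma-voom, a replicate block and left-out libraries. Figures used matplotlib 3.10.9.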

Additional observations from a re-analysis of the deposited data

How the results depend on the processing

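Klk5, Klk6, Klk8, Klk9 and Spink5 kept their direction and their call in all 16 alternatives run. Their adjusted p reached at most 0.0113, 0.0312, 0.0392, 0.0125 and 0.0128, and their log2 differences ranged from -1.96 to -1.60, -4.54 to -2.0, 1.00 to 1.42, -2.86 to -1.99 and -2.18 to -1.82. Klk11 and Klk13 were called in none of the 16. Klk10 was called in 1, without control 3, which gave 5 members lower in place of 4. Klk7 turned above 0 in 5, none of them called: 0.20 under the median of ratios, 0.088 under quantile normalization, 0.02 without control 2, 0.11 without cKO 3 (-0.13 to 0.11 over the left-out libraries) and 0.10 on control 2 and 3 and cKO 1 and 2 alone. Leaving out 1 library gave 4 to 6 other proteases higher, 2 to 4 other inhibitors higher and 2 to 4 substrate genes lower. Substrate genes had 5 higher on the 4 libraries. The log2 difference in the ratio of summed kallikreins to Spink5 was 2.07, and 1.98 to 2.23 when 1 library was left out, an alternative chosen after seeing the data.

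With the replicate number as a block (the replicate block) members had 1 higher and 4 lower, other inhibitors had 2 higher in place of 4, and 1325 genes were called in all against 2257. Same-numbered libraries did not deviate together (correlations of deviations -0.31, 0.08 and -0.26), so the numbers were not taken as pairs, and no library of the 3 labelled control correlated best with its own number. Over all genes, calls fell to 1102, 1251, 1376 and 1318 without control 2, control 3, cKO 1 and cKO 2, and rose to 3576 on the 4 libraries. The cause of these changes was not tested. Counts of fragments limit Klk14 and, in the libraries labelled cKO, Klk6.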
